A study of Mus musculus with 12 samples.

Results

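The 44 genes described here encode the machinery that copies the genome in S phase, together with the E2F factors classed as activators of its transcription. They were chosen by symbol from the 14323 genes of the count table, and all 44 had a row in it. They fall into 10 roles, namely the origin recognition complex, helicase loading, the MCM2-7 helicase, helicase activation, polymerase α with primase, polymerases δ and ε, the sliding clamp with its loader, replication protein A, Okazaki fragment maturation and the activator E2F factors.

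Replication is prepared in steps. The origin recognition complex (ORC) binds replication origins, and CDC6 and CDT1 then load the ring-shaped MCM2-7 helicase onto DNA in G1, a step that geminin blocks once S phase has begun. CDC45, the GINS complex and MCM10 turn the loaded rings into active helicases, polymerase α with primase lays down primers, polymerases δ and ε extend them on the clamp PCNA, and FEN1 and LIG1 join the fragments of the lagging strand. Most of these genes are textbook targets of E2F, which RB family proteins hold in check in resting lymphocytes, and engagement of the antigen receptor takes a naive T cell out of quiescence.

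The study measured how engaging LAIR-1, an inhibitory collagen receptor, changes the response of naive CD8 T cells to receptor stimulation. Splenocytes of 3 wild type mice were sorted for naive CD8 T cells (TCRβ+CD8+CD62L+CD44-), which were cultured for 6 h on plates coated with antibodies at 2.5 µg/ml each. The mice used in the study were adult C57BL/6N animals, and cells of each mouse went into all 4 conditions. Unstimulated isotype wells carried isotype control antibody only. Unstimulated anti-LAIR-1 wells carried the LAIR-1 antibody 2C7, and their column labels (iso_2C7) also name an isotype. Anti-CD3 isotype wells carried anti-CD3ε (145-2C11) with isotype control, and anti-CD3 anti-LAIR-1 wells carried anti-CD3ε with 2C7. The antibody stands in for the natural ligand, and no antigen-presenting cell or collagen was part of these wells. The comparison asked of the 44 genes is how much of the replication programme has started by 6 h, and whether anti-LAIR-1 changed it.

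The 12 libraries held 1781218 to 7725545 counted reads, with 1781218 to 3589194 in the unstimulated libraries and 3478294 to 7725545 in those with anti-CD3, so that sequencing depth moved with stimulation. Mitochondrial transcripts made up 17.6 to 20.9% of the reads without anti-CD3 and 11.5 to 13.2% with it. The 8 naive CD8 T cell markers summed to 5030 to 5540 CPM (reads scaled to a common library total) in unstimulated cells and to 1450 to 2050 CPM with anti-CD3, none of them at 0 in any group, and all 7 genes of a list of early receptor targets passed the test as higher in both anti-CD3 comparisons. The 5 memory or effector T cell markers summed to 114 to 132 CPM without and 159 to 201 CPM with anti-CD3. Of these, 2 passed as higher in each anti-CD3 comparison and 1 as lower with anti-LAIR-1. The 5 markers of B cells summed to 3.86 to 9.47 CPM without and 1.36 to 4.6 CPM with anti-CD3, and the 6 myeloid markers stayed between 0 and 3.97 CPM. With every library thinned to the smallest total, 20 and 13 members were called in the anti-CD3 comparisons below, against 24 and 23, and without mitochondrial genes and Rn45s the numbers of higher and lower calls did not change. The part of the marker shifts in the values below was not tested. RNA came from wells of bulk cells, so fewer cells of a type and less RNA per cell cannot be told apart.

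By 6 h of anti-CD3 with isotype, the replication genes had moved in both directions. Of the 44 genes, 40 had enough reads to test, 13 passed as higher and 11 as lower by edgeR's quasi-likelihood test at an adjusted p under 0.05 over all genes tested. Those 24 are 60% of the members tested, beside 71.3% of all 8690 genes tested (35.3% higher and 36.1% lower). Only 10 of the 40 passed with a change above 2-fold (6 up and 4 down), beside 44.3% of all genes. The median log2 fold change of the members was 0.05 against −0.03 for all genes, and the median size of the change was 0.5 against 0.87. In the pair of conditions with anti-LAIR-1, 39 members were tested, 11 passed as higher and 12 as lower (59%, beside 72.7% of the 9000 genes tested, 36.4% higher and 36.3% lower). Again 10 passed with a change above 2-fold, beside 40.6% of all genes, and the median log2 fold change was 0.04 against −0.04 for all genes. The split depended on scaling, since upper-quartile factors gave 8 higher and 14 lower with isotype and 7 higher and 16 lower with anti-LAIR-1. DESeq2 with the mouse as a block called 14 and 13 members, and ended the calls of Orc3, Orc5, Pola2, Pold1, Pole2, Rfc1, Rfc3, Rfc4, Rpa2 and Fen1 with isotype (adjusted p = 0.056 to 0.183) and of Cdt1, Gins3, Pola1, Pola2, Pold1, Pole, Rfc2, Rfc4, Fen1 and E2f1 with anti-LAIR-1 (adjusted p = 0.069 to 0.188). Without the block, DESeq2 called 18 and 19 members, beside 5753 and 6114 of all genes (6199 and 6541 in edgeR).

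**Figure D1:**
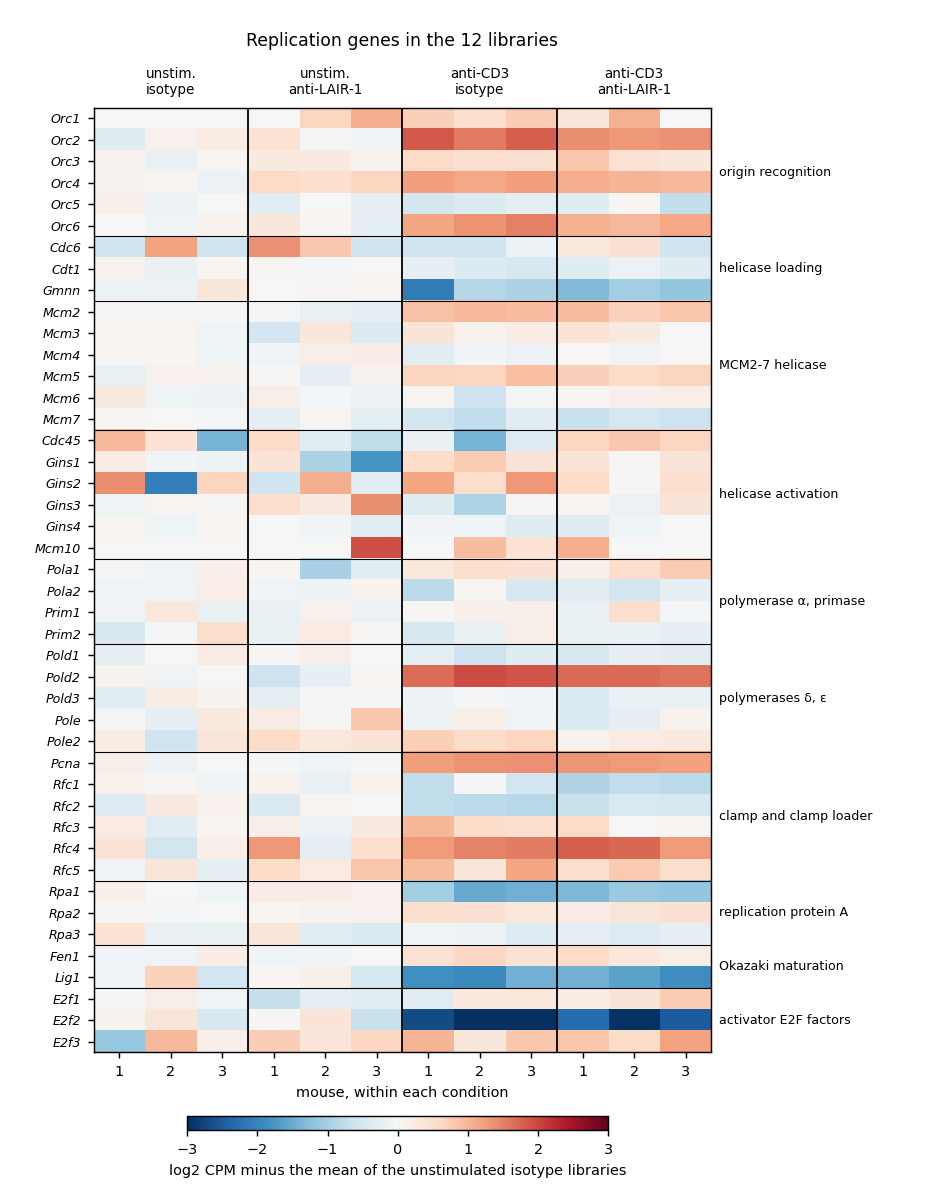
Each row is one of the 44 genes, grouped by role, and each column is a library, ordered by condition and mouse. Colour gives log2 CPM (prior count 2) minus the mean of the 3 unstimulated isotype libraries, from −3 (blue) to 3 (red). Orc2, Pold2 and Pcna were red in all 6 libraries with anti-CD3, while E2f2, Lig1 and Rpa1 were blue, and genes with few reads such as Cdc6 and Mcm10 scattered without order.

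These 2 anti-CD3 comparisons share no library, although they share mice. Among the 39 members tested in both, 9 passed as higher in both (Orc2, Orc4, Orc6, Mcm2, Mcm5, Pold2, Pcna, Rfc4 and Fen1), 10 as lower in both (Cdt1, Gmnn, Mcm7, Pola2, Pold1, Rfc1, Rfc2, Rpa1, Lig1 and E2f2) and 0 in opposite directions. Another 5 passed with isotype alone, 4 with anti-LAIR-1 alone and 11 in neither. Of all genes tested, 71.3% were called with isotype and 72.7% with anti-LAIR-1. Calls shared by both pairs were not counted over all genes, so this overlap is not shown to be particular to the replication genes. Passing in 1 pair alone does not show that the pairs differ, and the test of that difference is given with the anti-LAIR-1 comparisons below.

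**Figure D2:**
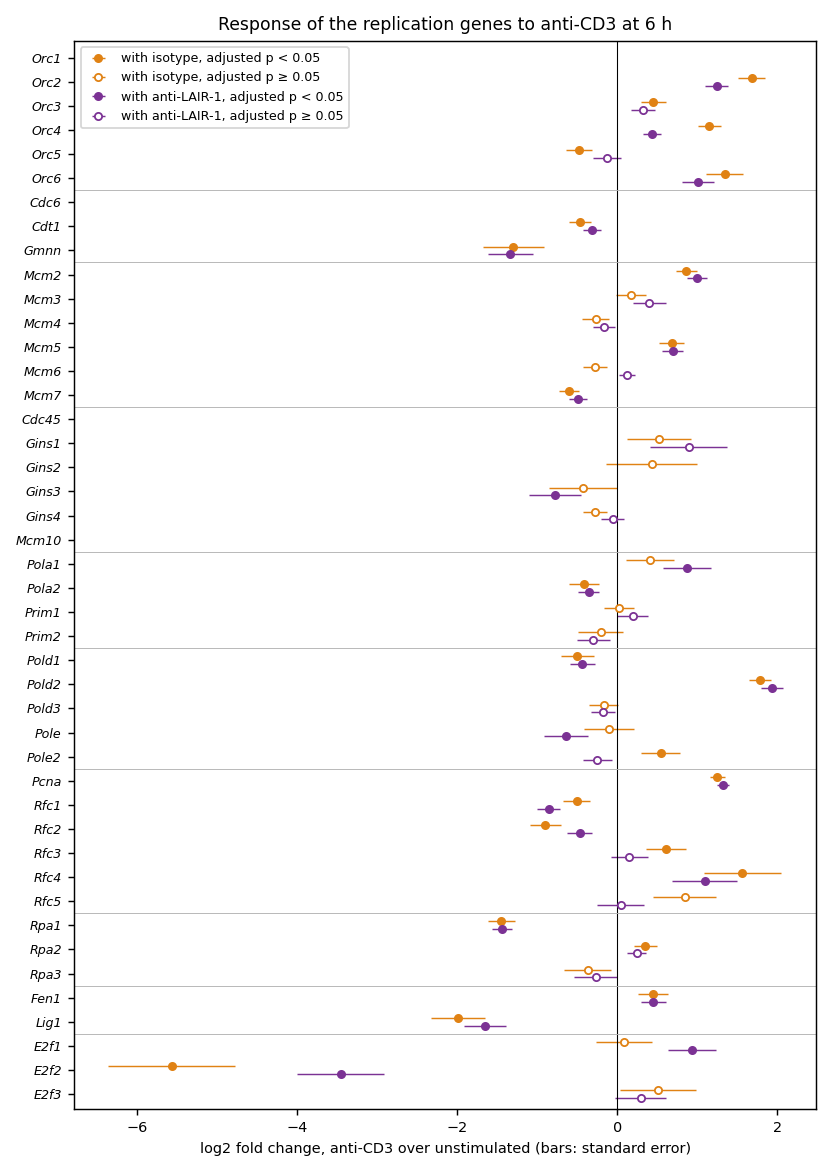
The horizontal axis gives the log2 fold change of anti-CD3 over unstimulated cells with its standard error, in orange for the isotype pair and in purple for the anti-LAIR-1 pair, with filled points for an adjusted p under 0.05. Genes run by role from top to bottom, and a row without a point had too few reads to test. Points lie on both sides of 0 within the ORC, MCM2-7, polymerase and clamp loader groups, and E2f2 lies farthest to the left.

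The E2F factors classed as activators were at low levels and did not move together. E2f1, which activates S-phase genes, was at 4.98, 5.95 and 4.73 CPM in the unstimulated isotype libraries of mice 1, 2 and 3, and at 3.99, 6.43 and 6.64 CPM after anti-CD3 with isotype. With anti-LAIR-1 it was at 3.03, 4.21 and 4.02 CPM unstimulated and at 6.1, 6.97 and 9.09 CPM after anti-CD3. The groups overlapped with isotype, and with anti-LAIR-1 all 3 stimulated libraries were above all 3 unstimulated ones. E2f1 passed as higher in the latter pair (log2 fold change 0.93, SE 0.303, adjusted p = 0.00985), a call that ended in DESeq2 with the mouse as a block (adjusted p = 0.069). Its value in the isotype pair was 0.08 with a 95% interval of −0.65 to 0.81. The difference between the pairs was 0.82 with an interval of −0.12 to 1.77 (adjusted p = 0.509), so it did not pass.

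E2f2, the other activator with a large change, was nearly lost from the reads. The unstimulated libraries held 15, 15 and 6 reads with isotype and 17, 23 and 10 with anti-LAIR-1. After anti-CD3 there were 1, 0 and 0 reads with isotype and 4, 1 and 2 with anti-LAIR-1, in deeper libraries. Relative to library totals scaled by TMM factors, the isotype pair gave 0.0147 of the unstimulated level, with a 95% counting interval of 0.000361 to 0.0871. E2f2 fell in both pairs (adjusted p = 1.3e-06 and 1.2e-05), and the fitted log2 fold changes of −5.57 and −3.46 rest on these few reads. The gene met the minimum of reads through the unstimulated libraries, so a fall was the change that could be tested, and without the filter the values were −5.47 and −3.37 (adjusted p = 2.7e-08 and 2.7e-07). E2f3, the remaining activator, was at log2 0.51 and 0.29 and did not pass in either pair.

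The start region of each gene was read from RefSeq (GRCm38.p6, from 250 bases before to 50 after the start) for the letters an E2F site can have. The 4 long words searched were TTTCCCGC, TTTCGCGC, TTTGCCGC and TTTGGCGC, and the 4 short words were the same letters without their first T. Both strands were read, words can overlap one another, and 36 of the 44 genes had a window. At least 1 short word was present in 24 of the 36 genes (66.7%), against 18.6% of the 10468 genes of the count table with a window and 10.9% of all 27025 genes. A long word, which always contains a short one, was in 17 of the 36 (47.2%), against 4.53% of genes of the count table. By call in the isotype pair, a short word was present in 8 of 13 genes that rose, 6 of 9 that fell and 8 of 10 tested genes that did neither. The search was added with the calls known, and a match describes letters, not binding. Gmnn, Mcm4, Gins1, Gins2, Gins4, Prim2, Pole and Rfc2 had no window. The windows below are shown because they belong to the factor that fell most and to members of one ring that moved apart. The start of E2f2 on chromosome 4 and those of 4 MCM genes are given 5′ to 3′ on the strand of the gene, with the short words on either strand in capitals.
E2f2, chr4:136172024-136172323 (+): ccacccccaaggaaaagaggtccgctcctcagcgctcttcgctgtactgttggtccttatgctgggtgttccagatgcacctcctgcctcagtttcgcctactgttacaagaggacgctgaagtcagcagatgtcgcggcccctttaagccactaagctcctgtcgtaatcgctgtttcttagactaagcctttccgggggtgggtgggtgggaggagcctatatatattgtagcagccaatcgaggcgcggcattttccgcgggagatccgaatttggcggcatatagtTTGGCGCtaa
Mcm2, chr6:88898731-88899030 (−): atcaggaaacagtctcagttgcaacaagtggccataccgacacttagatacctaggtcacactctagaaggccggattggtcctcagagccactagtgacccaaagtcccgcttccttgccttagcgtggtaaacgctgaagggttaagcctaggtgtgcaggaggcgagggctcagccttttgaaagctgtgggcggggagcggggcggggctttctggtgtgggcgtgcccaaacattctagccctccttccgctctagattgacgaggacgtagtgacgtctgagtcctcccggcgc
Mcm5, chr8:75109259-75109558 (+): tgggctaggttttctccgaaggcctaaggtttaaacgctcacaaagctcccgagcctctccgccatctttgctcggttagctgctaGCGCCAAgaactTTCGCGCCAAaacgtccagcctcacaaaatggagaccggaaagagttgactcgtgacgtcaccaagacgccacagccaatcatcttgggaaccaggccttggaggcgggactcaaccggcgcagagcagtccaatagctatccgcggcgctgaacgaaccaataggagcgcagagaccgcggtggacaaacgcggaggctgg
Mcm6, chr1:128359656-128359955 (−): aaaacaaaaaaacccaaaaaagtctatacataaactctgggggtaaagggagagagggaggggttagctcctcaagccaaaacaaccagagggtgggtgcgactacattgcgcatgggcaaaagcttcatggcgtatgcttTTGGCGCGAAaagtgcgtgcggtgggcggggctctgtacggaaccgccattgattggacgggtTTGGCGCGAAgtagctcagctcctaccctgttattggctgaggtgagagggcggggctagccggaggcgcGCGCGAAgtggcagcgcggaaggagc
Mcm7, chr5:138171834-138172133 (−): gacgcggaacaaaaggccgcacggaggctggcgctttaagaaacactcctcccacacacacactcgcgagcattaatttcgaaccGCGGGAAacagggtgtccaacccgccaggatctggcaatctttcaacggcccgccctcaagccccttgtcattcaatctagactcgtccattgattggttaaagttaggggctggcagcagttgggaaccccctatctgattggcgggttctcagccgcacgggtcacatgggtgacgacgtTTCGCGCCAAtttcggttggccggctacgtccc

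The E2f2 window held 1 word, the Mcm2 window 0, the Mcm5 window 3, the Mcm6 window 5 and the Mcm7 window 3. Mcm7 has a further annotated start whose window held 1 word, and E2f2 has a further one with 0. Some words in the Mcm5, Mcm6 and Mcm7 windows overlap, so these counts exceed the number of separate sites. Of the MCM genes printed, the one without a word and one with 3 rose, and another with 3 fell. The one with 5 passed in neither direction, nor did Mcm3, whose window held 3 and is not printed. No relation between words and direction was tested.

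The 6 MCM2-7 genes encode a ring that contains each subunit once, and their transcripts changed unequally. Mcm2 was at 36.5, 34.1 and 36.8 CPM in unstimulated isotype cells of mice 1, 2 and 3 and at 65.8, 70.1 and 68.8 CPM with anti-CD3. With anti-LAIR-1 the values were 35, 30.5 and 28.9 CPM and 68.7, 58 and 64.3 CPM. Every stimulated library was above every unstimulated one, and Mcm2 rose by log2 0.86 (SE 0.133, adjusted p = 4.2e-06) with isotype and 1.00 (SE 0.125, adjusted p = 6.8e-07) with anti-LAIR-1. Mcm5 also rose in both pairs, from means of 30.2 to 50.4 CPM (log2 0.68, adjusted p = 4.8e-04) and from 29.1 to 47.3 CPM (log2 0.69, adjusted p = 1.3e-04).

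Mcm7 went the other way. It was at 93.2, 90.8 and 88.9 CPM unstimulated and at 61.5, 54.5 and 71.6 CPM with anti-CD3 and isotype. The groups did not overlap, and Mcm7 fell by 0.61 on the log2 scale (SE 0.125, adjusted p = 1.3e-04). In the anti-LAIR-1 pair it was at 75, 96.9 and 75 CPM and then at 57.2, 63.4 and 57.7 CPM, a change of −0.49 (SE 0.115, adjusted p = 9.1e-04). Mcm6 was at 96.9, 72.9 and 72 CPM unstimulated and at 84.2, 51.5 and 76.6 CPM with anti-CD3 and isotype, with overlapping groups. Its anti-LAIR-1 values were 91, 76.3 and 72.3 CPM and then 83.7, 88.4 and 91.6 CPM. Neither pair passed (log2 −0.28, interval −0.6 to 0.04, and 0.12). Mcm3 (0.17 and 0.40) and Mcm4 (−0.27 and −0.17) did not pass either. Expressed as shares of the reads of all 6 genes, Mcm2 went from 12.4% ± 0.777 to 22.6% ± 2.49 and Mcm7 from 31.5% ± 0.904 to 20.6% ± 1.33 with isotype (SD, n = 3 mice). With anti-LAIR-1 and anti-CD3 these shares were 20.4% and 19.0%. Reads were taken near the 3′ end of transcripts, so the shares follow a gene across conditions and do not give the stoichiometry of the ring. The last 500 bases of Mcm7 overlap an exon of Cops6 on the opposite strand, and whether counting used strand was not given, so reads of the pair cannot be told apart.

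**Figure D3:**
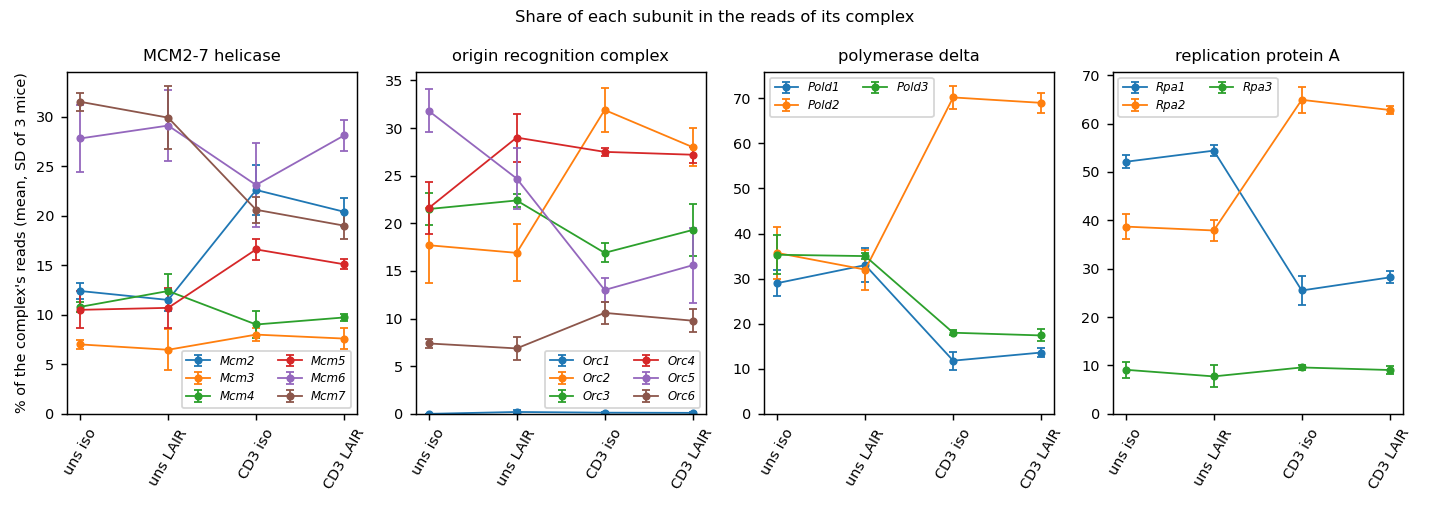
Each panel plots, for one complex, the share of its summed reads that fell on each subunit (vertical axis, %) in the 4 conditions, as mean and SD of 3 mice. Mcm2 and Mcm7 cross between the unstimulated and anti-CD3 isotype conditions, Pold2 goes from 35.7% to 70.2% of the polymerase δ reads, and Rpa1 falls from 52.1% to 25.5% of the replication protein A reads.

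The genes of ORC, which marks origins, gave 4 higher and 1 lower of 5 tested with isotype, beside 35.3% higher and 36.1% lower of all genes, and 3 higher of 5 with anti-LAIR-1, beside 36.4%. Orc2 was at 16.6, 23.4 and 25.2 CPM in unstimulated isotype cells and at 78.4, 63.3 and 75.6 CPM with anti-CD3. The anti-LAIR-1 pair gave 29.2, 20.8 and 20.1 CPM and then 57.5, 53.7 and 56.3 CPM. The stimulated libraries did not overlap the unstimulated ones, and Orc2 rose by log2 1.68 (SE 0.167, adjusted p = 4.0e-09) and 1.24 (SE 0.144, adjusted p = 2.4e-07). Orc4 was at 28.5, 27.7 and 23.1 CPM unstimulated and at 63.6, 59.6 and 64 CPM with anti-CD3 and isotype. With anti-LAIR-1 the same gene was at 40, 37.6 and 41.8 CPM and at 56.6, 53.7 and 52.2 CPM, so its unstimulated values were higher and its stimulated values lower than with isotype. Orc4 rose by log2 1.15 (SE 0.145, adjusted p = 2.2e-07) and 0.43 (SE 0.115, adjusted p = 0.00238), the latter call being lost under upper-quartile scaling (0.22).

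Orc6, the smallest subunit, rose in both pairs (log2 1.34, adjusted p = 1.4e-05, and 1.01, adjusted p = 1.7e-04). Orc3 rose (log2 0.45, adjusted p = 0.0152) and Orc5 fell (−0.48, adjusted p = 0.00942) with isotype, and their values with anti-LAIR-1 were 0.32 and −0.13, which did not pass. The Orc3 call was lost without the unstimulated isotype library of mouse 2 (0.36, adjusted p = 0.0719), under upper-quartile scaling (0.28) and with thinned libraries (0.41), and the Orc5 call without the anti-CD3 isotype library of mouse 1 (−0.39, adjusted p = 0.056). Orc1, the subunit whose level cycles in dividing cells, had 0 reads in all 3 unstimulated isotype libraries, where 3 reads would be 0.995, 1.19 and 1.58 CPM, and 1, 1 and 2 reads with anti-CD3. With anti-LAIR-1 there were 0, 1 and 2 reads unstimulated and 1, 3 and 0 with anti-CD3. Orc1 could not be tested at this depth. As shares of ORC reads, Orc2 went from 17.7% ± 3.94 to 31.9% ± 2.28 and Orc5 from 31.8% ± 2.25 to 13.0% ± 1.25 with isotype. The last 500 bases of Orc2 and Orc4 overlap exons of Nif3l1 and Acvr2a on the opposite strand, so reads of those pairs cannot be told apart.

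Neither of the tested genes for helicase loading rose. Cdt1, which brings MCM2-7 to ORC, was at 64.7, 51.9 and 62 CPM in unstimulated isotype cells and at 49.8, 44.8 and 42.4 CPM with anti-CD3. With anti-LAIR-1 it was at 62.3, 56.6 and 59.2 CPM and at 46.2, 52 and 46.1 CPM. The groups did not overlap within either pair, and Cdt1 fell by 0.47 on the log2 scale (SE 0.135, adjusted p = 0.00384) and by 0.32 (SE 0.111, adjusted p = 0.0146). The second call was lost without the anti-CD3 anti-LAIR-1 library of mouse 1 or 3 or the unstimulated anti-LAIR-1 library of mouse 1 (−0.28 to −0.27, adjusted p = 0.0543 to 0.0764), and without the filter on low counts (−0.23, adjusted p = 0.12).

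Gmnn, which encodes geminin, the inhibitor of CDT1 that accumulates from S phase on, was at 7.3, 7.13 and 10.5 CPM unstimulated and at 1.54, 4.29 and 4.05 CPM with anti-CD3 and isotype. Values with anti-LAIR-1 were 8.27, 8.42 and 8.57 CPM and 2.98, 3.74 and 3.38 CPM. All stimulated libraries were below all unstimulated ones, and Gmnn fell by 1.3 (SE 0.378, adjusted p = 0.00382) and by 1.34 (SE 0.281, adjusted p = 2.9e-04) on the log2 scale. With isotype, Gmnn met the minimum of reads through the unstimulated libraries, so a fall was the change that could be tested. Without the filter its isotype value was −1.21 (adjusted p = 0.00346). Cdc6, the loading ATPase, had 0, 3 and 0 reads in unstimulated isotype libraries and 0, 0 and 1 with anti-CD3, and with anti-LAIR-1 5, 3 and 0 and then 3, 3 and 0. With at most 5 reads in any library, Cdc6 could not be tested at this depth.

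The genes that convert loaded rings into running helicases gave 0 calls among 4 tested with isotype, beside 71.3% of all genes called. With anti-LAIR-1 they gave 1 lower among 3, beside 72.7% of all genes called. Mcm10, which acts at that step, had 0 reads in all 3 unstimulated isotype libraries, 0, 0 and 5 in unstimulated anti-LAIR-1 cells, 0, 2 and 1 with anti-CD3 and isotype and 4, 0 and 0 when both antibodies were present. Cdc45, part of the active helicase, had 6, 3 and 0 reads in unstimulated isotype cells and 2, 0 and 3 with anti-CD3, and with anti-LAIR-1 5, 2 and 1 and then 11, 10 and 7. Its anti-CD3 anti-LAIR-1 libraries held 28 reads against 5 with isotype, and without the filter on low counts the difference was log2 2.07 (SE 0.827, adjusted p = 0.148), which did not pass.

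Gins4, a GINS subunit, was at 41.8, 36.1 and 41.5 CPM unstimulated and at 37.5, 36.5 and 30.6 CPM with anti-CD3 and isotype, with overlapping groups (log2 −0.28, interval −0.59 to 0.04). With anti-LAIR-1 it was at 40, 37.6 and 31.3 CPM and at 30.6, 36.4 and 39.8 CPM (log2 −0.06). Gins1 (0.52 and 0.89) and Gins2 (0.43, tested with isotype only) did not pass, and the last 500 bases of Gins2 overlap an exon of Gse1 on the opposite strand. Gins3 passed as lower with anti-LAIR-1 (−0.78, SE 0.33, adjusted p = 0.0405), although its groups overlapped. That call was lost without the anti-CD3 anti-LAIR-1 library of mouse 1 or 2 or the unstimulated anti-LAIR-1 library of mouse 3 (−0.75 to −0.33, adjusted p = 0.0953 to 0.407).

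Polymerase α and primase, which make the primers, gave 1 call with isotype and 2 with anti-LAIR-1 among 4 genes tested. Among all genes tested, 71.3% were called with isotype and 72.7% with anti-LAIR-1. Pola2, the regulatory subunit, was at 37.5, 36.9 and 45.7 CPM unstimulated and at 22.7, 41.4 and 28.5 CPM with anti-CD3 and isotype, with mouse 2 inside the unstimulated range. In the anti-LAIR-1 pair Pola2 was at 37.2, 35.8 and 42.8 CPM and at 31.8, 27.2 and 32.4 CPM, where the groups did not overlap. Pola2 passed as lower in both (−0.42, SE 0.189, adjusted p = 0.0486, and −0.36, SE 0.134, adjusted p = 0.0224). The isotype call was lost without any one of the 6 libraries except anti-CD3 isotype mouse 2 (−0.49 to −0.24, adjusted p = 0.0534 to 0.269), and the other without the anti-CD3 anti-LAIR-1 library of mouse 2 or the unstimulated one of mouse 3 (−0.28 and −0.26, adjusted p = 0.108 to 0.129). Pola1, the catalytic subunit, rose with anti-LAIR-1 (0.87, SE 0.305, adjusted p = 0.0155) and was at 0.41 with isotype. Its call was lost without the anti-CD3 anti-LAIR-1 library of mouse 3 or the unstimulated anti-LAIR-1 library of mouse 2 (0.62 to 0.75, adjusted p = 0.0557 to 0.0897). The primase genes Prim1 (0.02 and 0.19) and Prim2 (−0.21 and −0.30) did not pass.

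Among the genes of the replicative polymerases, Pold2 had the largest rise of all members tested in both pairs. Pold2, an accessory subunit of polymerase δ, was at 31.2, 27 and 28.4 CPM in unstimulated isotype cells and at 93.4, 113 and 108 CPM with anti-CD3. With anti-LAIR-1 it was at 18.5, 24.2 and 30 CPM and at 95.3, 93.9 and 90.7 CPM. The stimulated values were all above the unstimulated ones, and Pold2 rose by log2 1.78 (SE 0.136, adjusted p = 4.0e-11) and 1.93 (SE 0.136, adjusted p = 1.9e-10). The catalytic subunit of the same enzyme, Pold1, went from means of 23.7 to 17.5 CPM and from 24.6 to 18.5 CPM and passed as lower in both pairs (−0.50, adjusted p = 0.0356, and −0.44, adjusted p = 0.0174), while Pold3 did not pass (−0.17 and −0.18). Pold2 thus went from 35.7% ± 5.75 to 70.2% ± 2.51 of the reads of these 3 genes with isotype, and to 69.0% with anti-LAIR-1.

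The polymerase ε genes among the members, Pole and Pole2, gave no call shared by both pairs. Pole3, a further subunit outside the members, is given with the other replication factors below. Pole2 passed as higher with isotype (0.54, adjusted p = 0.0492) and was at −0.25 with anti-LAIR-1, and Pole, the catalytic subunit, passed as lower with anti-LAIR-1 (−0.64, adjusted p = 0.0414) and was at −0.10 with isotype. The Pole2 call was lost without any anti-CD3 isotype library or the unstimulated isotype library of mouse 2 (0.28 to 0.60, adjusted p = 0.0538 to 0.299). The Pole call was lost without the anti-CD3 anti-LAIR-1 library of mouse 1 or 2 or the unstimulated anti-LAIR-1 library of mouse 1 or 3 (−0.71 to −0.37, adjusted p = 0.0509 to 0.279). The Pold1 calls were lost without mouse 2 or 3 of either isotype group (−0.52 to −0.38, adjusted p = 0.0617 to 0.15), and without the anti-CD3 anti-LAIR-1 library of mouse 1 or the unstimulated anti-LAIR-1 library of mouse 2 (−0.39 and −0.34, adjusted p = 0.0702 to 0.0944).

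Pcna, the sliding clamp that holds polymerases on DNA, rose 2.5-fold. It was at 304, 237 and 272 CPM in unstimulated isotype cells of mice 1, 2 and 3 and at 648, 688 and 700 CPM with anti-CD3. With anti-LAIR-1 the values were 262, 252 and 261 CPM and 672, 650 and 634 CPM. The stimulated and unstimulated libraries were far apart in both pairs, with means of 679 ± 27.1 against 271 ± 33.5 CPM and of 652 ± 19.4 against 258 ± 5.32 CPM (SD, n = 3 mice). The rise was log2 1.25 (SE 0.0939, adjusted p = 3.2e-11) and 1.32 (SE 0.071, adjusted p = 3.4e-12). Pcna lies on chromosome 2 at 132249162 to 132253314 (mm10, minus strand), and the mouse genome carries the pseudogenes Pcna-ps1 and Pcna-ps2. Reads that matched several places equally well were discarded, so its count is uncertain to the extent that the copies are alike. The RefSeq window at its start, printed because it holds none of the 4 short E2F words, reads as follows.
Pcna, chr2:132253131-132253430 (−): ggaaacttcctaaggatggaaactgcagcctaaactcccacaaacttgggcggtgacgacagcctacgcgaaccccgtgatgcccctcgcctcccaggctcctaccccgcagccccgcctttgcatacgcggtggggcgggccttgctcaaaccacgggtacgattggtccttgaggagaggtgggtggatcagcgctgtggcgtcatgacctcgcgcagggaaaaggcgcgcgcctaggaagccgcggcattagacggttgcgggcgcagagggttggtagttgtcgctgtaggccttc

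The loader that opens the clamp, replication factor C, split by subunit. Rfc1, its large subunit, and Rfc2 passed as lower in both pairs (−0.51, adjusted p = 0.0123, and −0.86, adjusted p = 1.7e-05 for Rfc1, and −0.90, adjusted p = 2.5e-04, and −0.47, adjusted p = 0.011 for Rfc2). Rfc4 passed as higher in both, from means of 1.45 to 4.58 CPM (log2 1.56, SE 0.479, adjusted p = 0.0059) and from 2.44 to 5.20 CPM (log2 1.09, SE 0.401, adjusted p = 0.0201, groups overlapping). It had 6, 2 and 3 unstimulated reads and 13, 22 and 31 with anti-CD3 in the isotype pair, and met the minimum of reads through the stimulated libraries, so a rise was the change that could be tested. Without the filter Rfc4 was at 1.65 and 1.19 (adjusted p = 0.00544 and 0.00531), and with DESeq2 and the mouse as a block it did not pass in either pair (adjusted p = 0.0824 and 0.0792). Rfc3 passed with isotype only (0.61, adjusted p = 0.0312, against 0.15), and Rfc5 did not pass (0.84, adjusted p = 0.0605, and 0.04).

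Several of these loader calls rested on single libraries. With isotype, the Rfc1 call was lost without the anti-CD3 isotype library of mouse 1 or 3 (−0.40 and −0.36, adjusted p = 0.081 to 0.0899) and the Rfc3 call without the anti-CD3 isotype library of mouse 1 or the unstimulated isotype library of mouse 2 (0.45 to 0.48, adjusted p = 0.115 to 0.149), while Rfc5 passed without mouse 2 of either group (1.09 and 1.08). With anti-LAIR-1, the Rfc2 call was lost without the stimulated library of mouse 1 or the unstimulated one of mouse 2 (−0.38 and −0.37, adjusted p = 0.061 to 0.0736). The Rfc4 call was lost without the stimulated library of mouse 1 or 2 or the unstimulated one of mouse 2 or 3 (0.73 to 1.07, adjusted p = 0.0557 to 0.118). The last 500 bases of Rfc4 and Rfc5 overlap exons of Eif4a2 and Wsb2 on the opposite strand, so reads of those pairs cannot be told apart.

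Replication protein A coats single-stranded DNA as a trimer, and its subunits also moved apart. Rpa1, the large subunit, was at 55.4, 49.1 and 45.7 CPM unstimulated and at 24, 17.2 and 18.1 CPM with anti-CD3 and isotype. In the anti-LAIR-1 pair Rpa1 was at 58.7, 58.4 and 54.4 CPM and at 19.2, 23 and 22 CPM. No stimulated library reached an unstimulated one, and Rpa1 fell by 1.45 (SE 0.167, adjusted p = 5.4e-08) and by 1.44 (SE 0.128, adjusted p = 5.5e-09) on the log2 scale. Rpa2, the middle subunit, was at 37.8, 36.1 and 37.3 CPM and at 52.2, 51.2 and 46.3 CPM with isotype, and at 38.9, 39.7 and 40.7 CPM and 43.9, 48.1 and 51 CPM with anti-LAIR-1. Its groups did not overlap in either pair, and it passed as higher with isotype (0.35, SE 0.14, adjusted p = 0.0303) and not with anti-LAIR-1 (0.24). The call was lost without mouse 1 or 2 of either isotype group (0.33 to 0.35, adjusted p = 0.0593 to 0.0679). Rpa3 did not pass (−0.37 and −0.27). Rpa1 went from 52.1% ± 1.35 to 25.5% ± 2.97 of the reads of the trimer and Rpa2 from 38.7% ± 2.6 to 64.9% ± 2.66 with isotype.

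The genes that finish the lagging strand went in opposite directions. Lig1, the ligase that seals Okazaki fragments, was at 13.3, 23.8 and 9.46 CPM in unstimulated isotype cells and at 3.69, 3.43 and 5.02 CPM with anti-CD3. With anti-LAIR-1 it was at 15.2, 16.1 and 9.91 CPM and at 5.01, 4.42 and 3.6 CPM. All stimulated libraries lay below all unstimulated ones, and Lig1 fell by 1.99 (SE 0.334, adjusted p = 1.2e-05) and by 1.65 (SE 0.262, adjusted p = 1.4e-05) on the log2 scale. Fen1, the flap nuclease, was at 18.9, 18.2 and 23.7 CPM and at 27.3, 31.1 and 27.5 CPM with isotype, and at 18.5, 19 and 19.8 CPM and 30.2, 25.3 and 22.8 CPM with anti-LAIR-1. Fen1 passed as higher in both (0.44, SE 0.187, adjusted p = 0.0389, and 0.45, SE 0.16, adjusted p = 0.0178). The isotype call was lost once the mouse was added as a block (0.43, adjusted p = 0.0546). It was also lost without the anti-CD3 isotype library of mouse 2 or the unstimulated isotype library of mouse 1 or 2 (0.38 to 0.40, adjusted p = 0.101 to 0.119), and the other call without the anti-CD3 anti-LAIR-1 library of mouse 1 (0.34, adjusted p = 0.101).

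**Figure D4:**
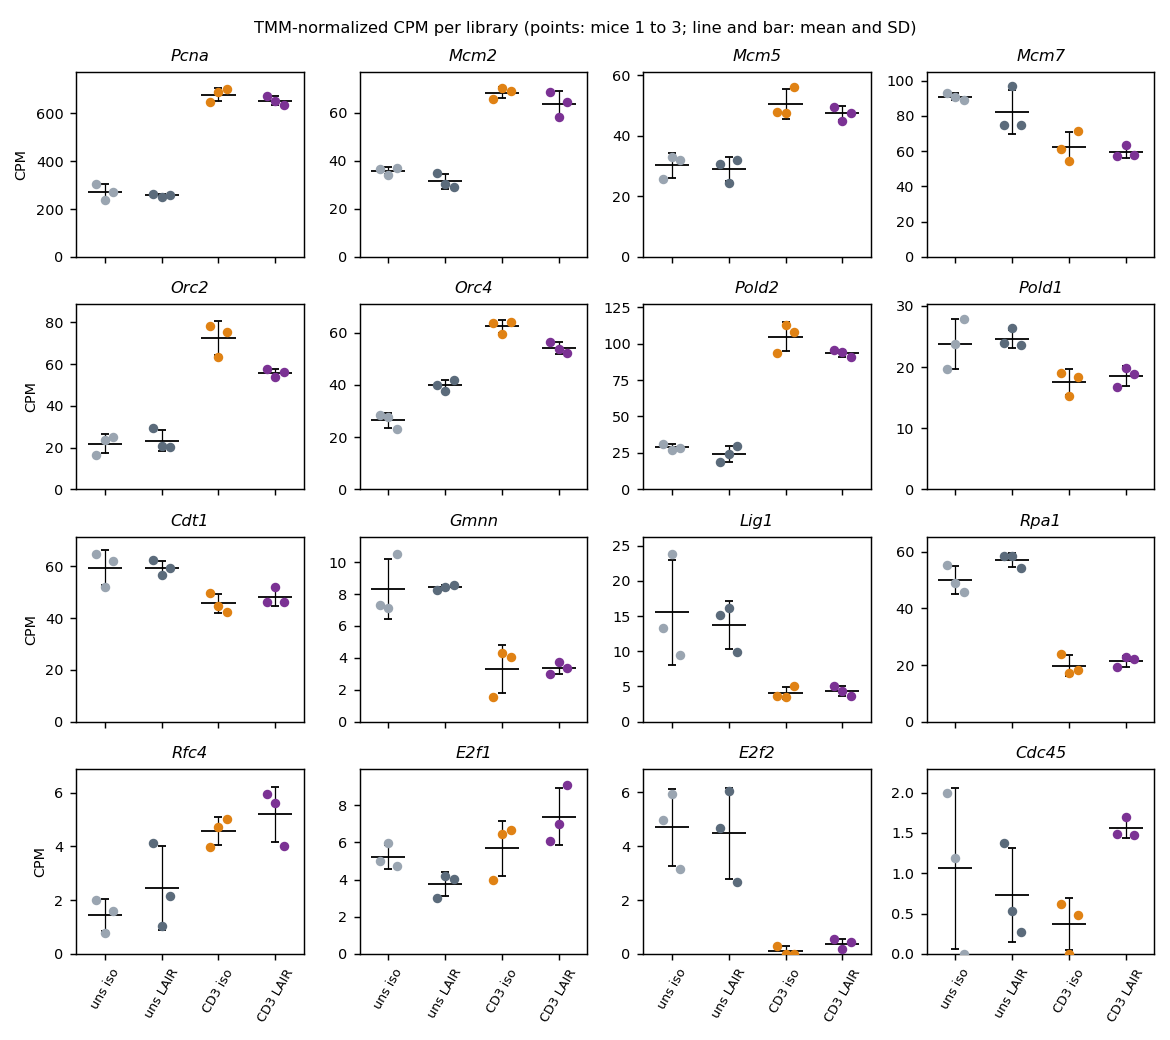
Points give TMM-normalised CPM (vertical axis, linear from 0) in each library of 16 replication genes, with the unstimulated pair on the left, the anti-CD3 pair on the right and isotype before anti-LAIR-1 in each, with a line at the mean and bars of 1 SD over mice 1 to 3. Pcna, Mcm2, Mcm5, Orc2 and Pold2 are higher in all 6 anti-CD3 libraries than in all 6 unstimulated ones, and Mcm7, Gmnn, Lig1, Rpa1 and E2f2 are lower.

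Lists around the machinery were counted in the same fits, where 71.3% of all genes were called in the isotype pair and 72.7% in the other. The called shares of other replication factors (61.9% and 63.6%), chromatin factors (77.8% and 80%), deoxynucleotide genes (87.5% in both), other E2F, DP and RB genes (87.5% and 88.9%) and checkpoint genes (77.8% and 55.6%) lay on both sides of these values, and no difference from them was tested. Of 30 other replication factors, 21 were tested with isotype and 7 passed as higher and 6 as lower (8 and 6 of 22 with anti-LAIR-1). Pole3, a histone-fold subunit of polymerase ε, went from 8.63, 8.72 and 8.94 to 36.9, 36.2 and 37.9 CPM with isotype (log2 2.00, SE 0.202, adjusted p = 5.4e-09), and Pold4, the small subunit of polymerase δ, went from 47.8, 41.2 and 45.2 to 18.4, 14.2 and 16.5 CPM (log2 −1.53, SE 0.172, adjusted p = 3.3e-08). Genes that assemble chromatin behind the fork gave 5 higher and 2 lower of 9 tested (7 and 1 of 10 with anti-LAIR-1), from Supt16, a subunit of the histone chaperone FACT (log2 1.72, adjusted p = 0.00011), to Asf1b, a histone chaperone (−0.74, adjusted p = 0.0363, groups overlapping). With isotype, Supt16 met the minimum of reads through the anti-CD3 libraries, so a rise was the change that could be tested.

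Genes that supply deoxynucleotides gave 5 higher and 2 lower of 8 tested in both pairs, with a median log2 fold change of 0.77 with isotype. Shmt1, a one-carbon enzyme that feeds thymidylate synthesis, went from 3.98, 1.59 and 5.26 to 196, 190 and 182 CPM with isotype (log2 5.67, SE 0.198, adjusted p = 4.3e-17) and from 3.86, 4.21 and 4.02 to 175, 159 and 151 CPM with anti-LAIR-1 (log2 5.30). With isotype it met the minimum of reads through the anti-CD3 libraries, so a rise was the change that could be tested. Rrm2b, a ribonucleotide reductase subunit, went from 12.3, 15.1 and 11 to 3.38, 7.29 and 6.8 CPM with isotype (log2 −1.16, adjusted p = 0.00147) and fell by 1.32 with anti-LAIR-1. The other E2F, DP and RB family genes gave 3 higher and 4 lower of 8 tested (3 and 5 of 9), between E2f6, a repressive family member (log2 1.69, adjusted p = 7.1e-08), and Tfdp2, a dimer partner of E2F (−2.20, adjusted p = 4.6e-07).

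Checkpoint genes gave 6 higher and 1 lower of 9 (4 and 1 with anti-LAIR-1), from Chek1, a checkpoint kinase (log2 1.63, adjusted p = 0.0204, at 9 reads in the unstimulated isotype libraries and 59 with anti-CD3), to Rad9a, part of the checkpoint clamp (−1.29, adjusted p = 0.00033). Chek1 met the minimum of reads through the anti-CD3 libraries, so a rise was the change that could be tested. Genes of G2 and mitosis had few reads. Of 18 listed, 1 was tested with isotype and 0 passed, and 3 were tested with anti-LAIR-1, of which Top2a, the topoisomerase of mitotic chromosomes, passed as lower (−0.91, adjusted p = 0.0359). In that pair Top2a met the minimum of reads through the unstimulated libraries, so a fall was the change that could be tested. Mki67, the proliferation marker, had 7, 9 and 4 reads in unstimulated isotype cells and 3, 2 and 4 with anti-CD3.

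**Figure D5:**
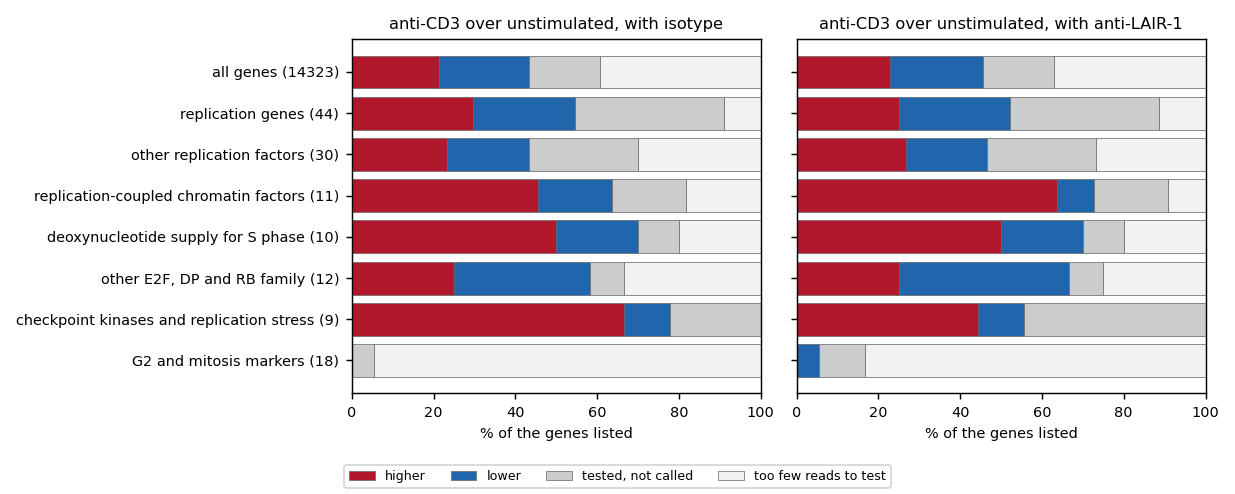
Bars give the share of each gene list (horizontal axis, % of the genes listed, with the number listed in parentheses) that passed as higher, passed as lower, was tested without passing, or had too few reads, for anti-CD3 over unstimulated cells with isotype (left) and with anti-LAIR-1 (right). The replication genes hold higher and lower calls in near equal parts in both panels, and most G2 and mitosis markers had too few reads to test.

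Few of the replication genes separated the anti-CD3 conditions with and without anti-LAIR-1. Between the anti-CD3 libraries with anti-LAIR-1 and with isotype, 39 members were tested and 1 passed, Orc2 (2.56% of members, beside 5.76% of the 8800 genes tested). The values of Orc2 were 57.5, 53.7 and 56.3 CPM with anti-LAIR-1 and 78.4, 63.3 and 75.6 CPM with isotype, so the groups did not overlap and all 3 mice were lower with anti-LAIR-1 (log2 differences of −0.44, −0.23 and −0.42). The fitted difference was −0.37 (SE 0.103, interval −0.58 to −0.15, adjusted p = 0.0436). The call was lost with DESeq2 (adjusted p = 0.0548), and without any one anti-CD3 anti-LAIR-1 library or the anti-CD3 isotype library of mouse 1 or 3 (−0.39 to −0.32, adjusted p = 0.0793 to 0.151). It rests on a narrow margin, while Orc2 was lower in all of these fits.

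For 37 of the 39 members the 95% interval of the difference lay within 2-fold in either direction, beside 7480 of all 8800 genes tested. The exceptions among the members were Gins2 (−1.57 to 0.05) and Gins3 (−0.24 to 1.23). Pcna was at −0.05 (−0.19 to 0.08), Pold2 at −0.17 (−0.36 to 0.02), Mcm2 at −0.10 (−0.30 to 0.11), Mcm7 at −0.07 (−0.31 to 0.16), Rpa1 at 0.14 (−0.21 to 0.49), Lig1 at 0.10 (−0.55 to 0.74) and E2f1 at 0.32 (−0.25 to 0.88). At an unadjusted p under 0.05 there were 4 members, namely Orc2, Pole2 (−0.43), Rfc1 (−0.41) and Mcm6 (0.32), of which the last 3 had adjusted p-values of 0.15 to 0.185. Outside the 44 genes, Top1, the topoisomerase that relaxes DNA ahead of the fork (−0.32, adjusted p = 0.0208), and Supt16 (−1.08, adjusted p = 0.00483) were lower with anti-LAIR-1. Top1 was 1 call among 22 other replication factors tested and Supt16 1 among 10 chromatin factors, beside 5.76% of all 8800 genes. The deoxynucleotide, other E2F, checkpoint and G2 and mitosis lists gave 0 calls.

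In unstimulated cells, anti-LAIR-1 gave no call among 37 members tested, beside 0% of the 8770 genes tested. By edgeR's unadjusted p under 0.05 there were 2 members and 384 genes in all, and DESeq2 called 0 genes adjusted and 213 unadjusted. Orc4 was the member with the smallest unadjusted p, at 40, 37.6 and 41.8 CPM with anti-LAIR-1 against 28.5, 27.7 and 23.1 CPM with isotype, groups that did not overlap (log2 0.56, interval 0.23 to 0.88, adjusted p = 0.997). The interval lay within 2-fold for 31 of the 37 members, beside 7448 of all 8770 genes tested.

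The interaction term asks whether the response to anti-CD3 differed with anti-LAIR-1. Among 40 members tested over all 12 libraries, 1 passed, Orc4 (2.5%, beside 2.07% of the 9223 genes tested). Its response was smaller with anti-LAIR-1 by 0.75 on the log2 scale (log2 −0.75, SE 0.175, interval −1.11 to −0.38, adjusted p = 0.0207). Orc4 differed by 0.56 between the unstimulated conditions and by −0.20 between the anti-CD3 conditions, neither of which passed on its own (adjusted p = 0.997 and 0.285). The call was lost without the mouse 3 library of any one of the 4 conditions (−0.73 to −0.68, adjusted p = 0.0536 to 0.061) and with every library thinned to the smallest total (−0.63, adjusted p = 0.21). The next members by unadjusted p were Pole2 (−0.81, adjusted p = 0.187) and Orc2 (−0.47, adjusted p = 0.411).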

How the data were processed

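RNA of sorted naive CD8 T cells was prepared by an adapted CEL-seq protocol, which barcodes each sample and reads transcripts near the 3′ end, and was sequenced on a NextSeq 500. The authors aligned the reads to the mm10 transcriptome with BWA MEM, discarded reads that matched several places equally well and deposited raw counts per gene, with no normalization. Whether reads were collapsed by molecular identifier or counted by strand is not given in the sources used here. The table held 14323 genes and 12 samples, and 0 of its sample columns were left out.

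Counts were tested in R 4.3.3 with edgeR 4.0.16 (limma 3.58.1), by quasi-likelihood F tests on the 6 libraries of each comparison, with TMM factors and filterByExpr, and by an interaction over all 12 libraries. P-values were adjusted by Benjamini-Hochberg over all genes tested and called under 0.05. They measure the spread between 3 mice. CPM used TMM factors over all 12 libraries, log2 CPM a prior count of 2. Counting intervals (95%) and the floor of 3 reads (0.407 to 1.58 CPM) cover counting error only. The tests were checked on simulated data. Replicate counts differed by more than sampling noise (chi-square per gene 3.81 to 5.62), so no library is a copy.

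Groups and mice came from the sample titles. Mouse numbers pair the samples because the same animals gave all conditions. Deviations of same-mouse libraries from their group means correlated weakly (mean r over 9223 genes 0.027 to 0.0747). The values between mice (−0.0374 to −0.0135) largely follow from these, because deviations within a group sum to 0, and are no separate baseline. The fit without this block is the reported one. Alternatives were other scaling factors, filters and tools, the block, thinning, all libraries in 1 fit and leaving out each library. A fit without mitochondrial genes and Rn45s was chosen after seeing the data.

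The 44 members and all gene lists were chosen with earlier results of these data known. Values in every library are given for members called in an anti-LAIR-1 comparison or the interaction, for those with the 2 highest and 2 lowest log2 fold changes called in each anti-CD3 comparison, for E2f1, Cdc6, Cdt1, Mcm10, Pcna and Gmnn, and for the member of highest mean CPM in each role. Mcm2, Mcm7, Rpa1 and Cdc45 were added to these after their values were seen. In each other list, the called genes with the highest and lowest log2 fold change with isotype are named, while Rrm2b, Top2a, Mki67 and Top1 were named after their values were seen. Of the lists, 10 genes were not analysed here. One gene that this rule names is not reported here. Orc6, Rfc2 and Fen1 overlap exons of Vps35, Lat2 and Tmem258 on the opposite strand, away from their last 500 bases.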

Additional observations from a re-analysis of the deposited data

Results flagged for a closer look

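The response of Orc4 to anti-CD3 differed between the isotype and anti-LAIR-1 conditions by −0.75 on the log2 scale (interaction term in edgeR's quasi-likelihood fit, adjusted p = 0.0207), which is the difference between groups that singled it out. With the mouse as a block the adjusted p was 0.0221, and DESeq2 gave 0.0132. The difference combines higher unstimulated values (40, 37.6 and 41.8 CPM against 28.5, 27.7 and 23.1) with lower anti-CD3 values (56.6, 53.7 and 52.2 CPM against 63.6, 59.6 and 64) in the anti-LAIR-1 wells. The last 500 bases of Orc4 overlap an exon of Acvr2a on the opposite strand, and the part of that gene in the reads was not tested.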

How the results depend on the processing

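No member changed direction while passing the test under any alternative run. Of the members called, 14 of 24 (isotype) and 12 of 23 (anti-LAIR-1) passed in every anti-CD3 alternative that tested them. Among these, E2f2 was left out of 2 alternatives in each pair and Gmnn of 1 with isotype, so those alternatives did not check them. With the replicate block DESeq2 called 14 and 13 members in these comparisons and 0 for anti-LAIR-1 with anti-CD3, and without it 18, 19 and 0. Without it, 5753, 6114 and 446 of all genes were called. The replicate block in edgeR gave 23, 23, 1, 0 and 1 member for anti-CD3 with isotype, anti-CD3 with anti-LAIR-1, anti-LAIR-1 with anti-CD3, anti-LAIR-1 unstimulated and the interaction, and ended only the Fen1 call with isotype. Over all genes that fit called 6138, 6478, 549, 0 and 218, in the same order. With a change above 2-fold required as well, 10 and 10 members passed for anti-CD3, and 0 for anti-LAIR-1 with anti-CD3 and for the interaction. Thinning every library to the smallest total gave 13 for anti-CD3 with anti-LAIR-1, 0 for anti-LAIR-1 with anti-CD3 and 0 for the interaction, with fewer reads by construction. For anti-LAIR-1 with anti-CD3, no scaling factor beyond the total gave 0 members, 1 fit of all 12 libraries gave 0, and no filter gave 2 (Mcm6, 0.32, adjusted p = 0.0363, besides Orc2). Leaving out 1 library gave 18 to 22, 17 to 23, 0 to 1, 0 to 0 and 0 to 1 members in the same order. Over all genes the ranges were 5932 to 6153, 6218 to 6450, 293 to 427, 0 to 1 and 103 to 186. The cause was not tested. Upper-quartile factors moved the median of all genes to −0.2 and −0.24 and ended the higher calls of Fen1 in both pairs (0.26 and 0.24), of Rpa2, Orc3, Rfc3 and Pole2 with isotype and of Orc4, Rfc4 and Pola1 with anti-LAIR-1. No scaling beyond the total gave 9 higher and 13 lower with isotype and 10 and 12 with anti-LAIR-1. Leaving out mitochondrial genes and Rn45s gave 13 and 11, and 11 and 12, as before. At this depth Orc1, Cdc6, Cdc45 and Mcm10 could not be tested, and without the filter none of them passed.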
